A study of Mus musculus with 3 samples.

Results

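The 10 genes for secreted matricellular and adhesive glycoproteins followed here are Fn1, Fbln1, Thbs1, Thbs2, Tnc, Postn, Sparc, Sparcl1, Ccn1 and Ccn2. They were taken by symbol from a list of such genes, and 10 of 10 were found, each as a single gene, among the 54532 genes of the deposited tables. The RNA came from cells of the dorsal dura mater, the tough outermost meninx, in a mouse model of dural metastasis made by inoculation of 4T1-DM cells (4T1 is a mouse mammary carcinoma line). All 3 groups carried the tumour cells and were sampled on day 12 after inoculation. Collagenase VIII and DNase I released the cells, which are labelled CD45-CD31+PDPN+, that is, without the leukocyte marker CD45 and with the endothelial marker CD31 and podoplanin. The treatments were PBS, ZOL and ZOL+Ang2, abbreviations that the labels do not spell out. The sources used here give no dose, strain, sex or age. Cells of 6 mice were pooled per group and gave 1 library each, so there is no replicate, no test was possible, and each value describes a library and not the spread between animals.

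Matricellular proteins are secreted into the extracellular matrix but serve less as scaffold than as signals: they bind integrins, syndecans, proteases and growth factors and alter how cells adhere to the matrix. Many are low in resting adult tissue and high in development, wounds and tumour stroma. Fibronectin, included here with them, is a fibril-forming adhesive glycoprotein that carries the RGD motif recognised by integrins. Fibroblasts, mural cells and endothelium can all make several of these proteins.

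The recovered reads (whole reads worked back from the deposited RPKM values) came to 1675532 with PBS, 16586760 with ZOL and 9204901 with ZOL+Ang2, so PBS values were the least precise. The PBS library also stood apart in content: satellite-type, mitochondrial, ribosomal RNA, chemoreceptor and haemoglobin genes held 37.7% of its reads, and 9.62% and 15.5% of those of the other libraries. Genes that mark the labelled cells were read in part. Pdpn, which encodes podoplanin, was read in every library, at 18.8, 67.5 and 170.6 CPM in the order PBS, ZOL and ZOL+Ang2 (CPM are counts of reads scaled to a common library size). Pecam1, which encodes CD31, had 2 reads with PBS and 475 and 177 CPM with ZOL and ZOL+Ang2, whereas the endothelial receptor gene Flt1 had 465 CPM with PBS, and Emcn and Kdr had 276 and 210.4. Lyve1, a defining marker of lymphatic endothelium, had 0 reads in all 3 libraries, and Prox1 had 2, 0 and 0. Ptprc, which encodes CD45, was read in each library at 155.5, 25.1 and 76.1 CPM with PBS, ZOL and ZOL+Ang2.

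Members were compared with each other within a library by RPKM, which is per length. Sparc, which encodes the collagen-binding protein SPARC (osteonectin), had the highest RPKM of the 10 in every library, at 358 with PBS, 265 with ZOL and 1035 with ZOL+Ang2. It held 36.05%, 46.0% and 61.6% of the summed RPKM of the members. The order below it differed between libraries. In PBS it ran Sparc, Ccn1, Sparcl1, Fbln1, Tnc, Thbs2, Fn1, Postn, Thbs1 and Ccn2. In ZOL, Sparcl1, Ccn1, Fn1 and Thbs1 followed Sparc, and Fbln1, Postn and Tnc came last. In ZOL+Ang2, Ccn2 was second and Fn1 next, and the lowest 3 were Fbln1, Postn and Thbs1. Neighbours in these orders have no spread over samples to be set against.

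**Figure D1:**
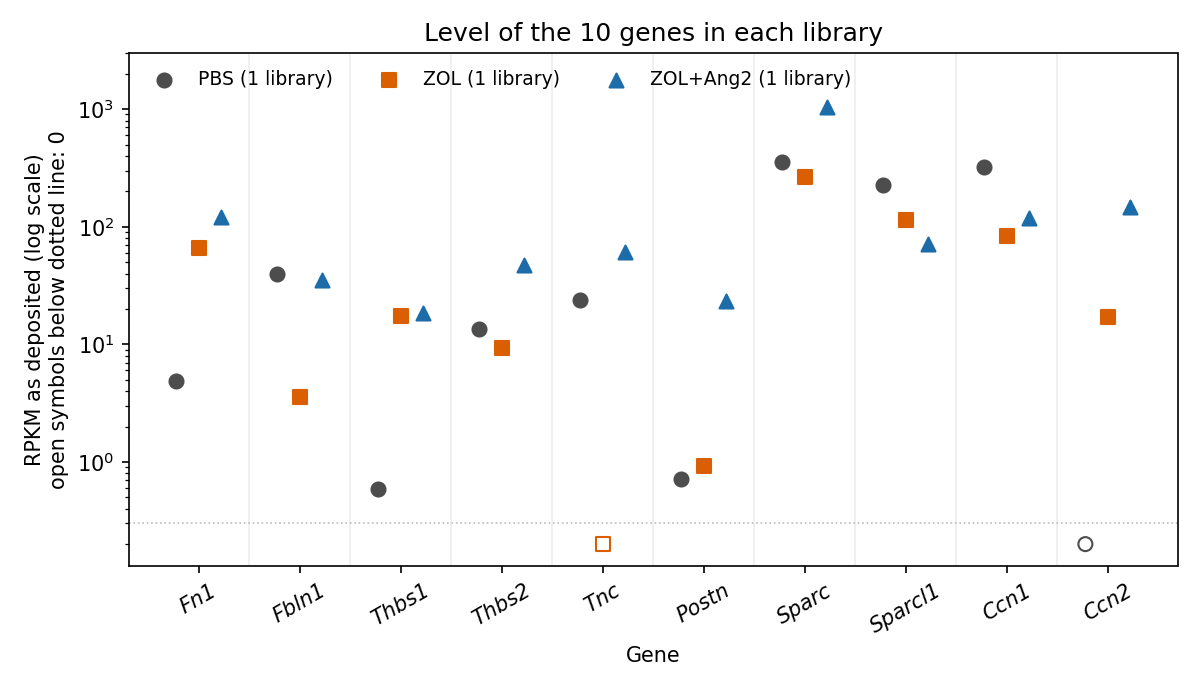
RPKM of the 10 genes in the PBS, ZOL and ZOL+Ang2 libraries (log axis, 1 point per library, open symbols under the dotted line for values of 0). Sparc is highest in each library, and the open symbols are Tnc with ZOL and Ccn2 with PBS.

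Ranks among the 10942 genes compared (those averaging 10 CPM or more across the 3 libraries) depend on how libraries are scaled against each other only through that filter. The members Sparc, Ccn1 and Sparcl1 ranked near the top in every library, with Sparc at percentiles 98.9 (PBS), 98.8 (ZOL) and 99.7 (ZOL+Ang2), Ccn1 at 98.6, 95.5 and 96.6, and Sparcl1 at 97.75, 96.9 and 94.4. Fn1, Thbs1 and Ccn2 ranked low with PBS and high in both other libraries. Fn1 went from percentile 46.7 to 94.3 and 96.7, Thbs1 from 28.9 to 80.2 and 79.4, and Ccn2 from 10.1 to 80.0 and 97.3. Fbln1 and Tnc ranked lowest with ZOL, with Fbln1 at 81.3, 44.6 and 88.5 and Tnc at 72.7, 6.54 and 93.4. Postn ranked high with ZOL+Ang2 alone, at 30.7, 25.5 and 83.1, and Thbs2 ran 61.8, 67.2 and 91.4.

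**Figure D2:**
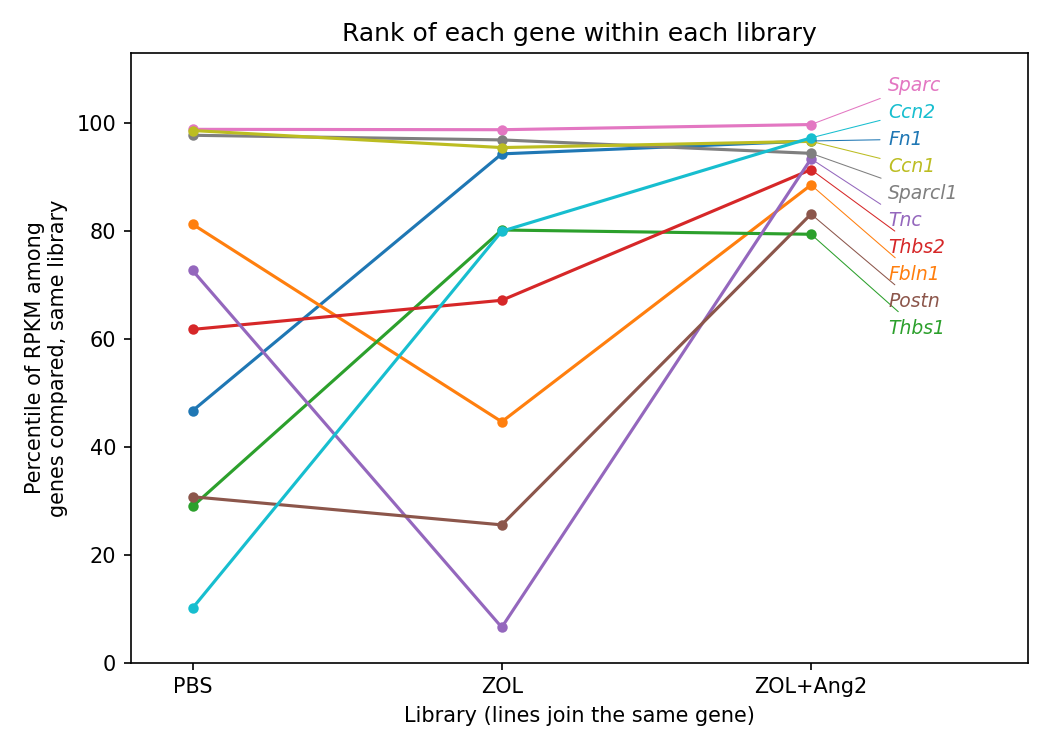
Percentile of each gene's RPKM among the 10942 genes compared, within PBS, ZOL and ZOL+Ang2. Lines join the values of a gene; Sparc, Ccn1 and Sparcl1 stay above 94 in each library, while Tnc goes from 72.7 to 6.54 to 93.4.

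Promoter sequence was at hand for 6 of the 10 genes, as 9 windows in RefSeq (GRCm38.p6): Fbln1, Thbs2, Tnc, Postn, Sparc and Ccn1. Ccn2, Fn1, Thbs1 and Sparcl1 are named only. The 250 bases before each start were searched on both strands for 4 motifs. GGAATG is the core bound by TEAD factors, the partners of YAP. TGANTCA is the AP-1 site, and the CArG box is that of serum response factor. The TATA box was searched as TATAAA. A CArG box can hold the letters of a TATA box, but no window held a CArG box. Shown are Ccn1, a textbook YAP target and the single gene of the 6 with a TEAD match, and Postn, Tnc and Thbs2, which were all higher with ZOL+Ang2 than with ZOL and carry a TATA match. Each is written 5′ to 3′ on the gene's strand and ends at the base before the start, with matches on either strand in capitals.
Ccn1 (chr3:145649986-145650235, minus strand): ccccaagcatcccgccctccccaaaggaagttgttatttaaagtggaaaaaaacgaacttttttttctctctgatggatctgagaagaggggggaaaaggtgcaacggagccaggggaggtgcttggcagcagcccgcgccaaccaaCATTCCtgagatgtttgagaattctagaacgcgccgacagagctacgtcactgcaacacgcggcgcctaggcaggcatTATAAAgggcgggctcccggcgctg
Postn, second start (chr3:54360857-54361106, plus strand): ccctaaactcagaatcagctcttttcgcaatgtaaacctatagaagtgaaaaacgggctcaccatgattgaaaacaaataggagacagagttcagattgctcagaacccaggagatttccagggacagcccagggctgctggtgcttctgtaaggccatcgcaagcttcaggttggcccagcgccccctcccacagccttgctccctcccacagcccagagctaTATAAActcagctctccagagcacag
Tnc, first start (chr4:64047016-64047265, minus strand): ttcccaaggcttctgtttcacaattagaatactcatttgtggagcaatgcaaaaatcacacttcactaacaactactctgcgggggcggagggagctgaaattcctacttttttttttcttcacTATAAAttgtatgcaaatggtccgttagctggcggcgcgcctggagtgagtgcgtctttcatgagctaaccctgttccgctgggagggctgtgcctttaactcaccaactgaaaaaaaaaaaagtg
Thbs2 (chr17:14694263-14694512, minus strand): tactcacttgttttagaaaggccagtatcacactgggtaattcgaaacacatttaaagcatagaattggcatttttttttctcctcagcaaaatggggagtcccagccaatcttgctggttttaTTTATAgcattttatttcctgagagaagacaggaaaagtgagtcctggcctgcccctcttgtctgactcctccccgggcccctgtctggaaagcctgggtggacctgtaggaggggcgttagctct
In Ccn1 the TEAD match (read as its reverse complement) begins 103 bases before the start and the TATA match 25. The TATA match of Postn begins 26 bases before its second start. In Tnc the TATA match lies 126 bases before the first start (205 before the second), and in Thbs2, on the opposite strand, 126. None of the 4 motifs was matched in the windows of Sparc, of Fbln1 and of the first start of Postn, and the AP-1 site was matched in none of the 9. Yet Sparc (3.46-fold) and Fbln1 (8.78-fold) were also higher with ZOL+Ang2 than with ZOL. Ccn1, with a TATA match, was 1.28-fold higher. Of 32851 windows of the same 250 bases over all promoters, 12.6% hold the TEAD core, 6.75% the AP-1 site, 12.4% the TATA box and 1.47% the CArG box. A match is a description of letters and not a bound site.

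Between libraries, folds are ratios of CPM, with a 95% interval that covers counting error only. A gene at 0 reads gets a bound against 3 reads in the same library as a floor, and 2-fold serves as a mark for description and not as a test. The scaling matters most for comparisons with PBS. The median log2 fold of all genes compared, without a prior, lay 1.18 higher with ZOL than with PBS and 0.79 higher with ZOL+Ang2 than with PBS, but -0.18 with ZOL+Ang2 against ZOL. Over 6 other scalings these medians ran from -0.12 to 1.80, from -0.35 to 1.24 and from -0.35 to 0.02. In bulk samples, fewer cells of a type and less RNA per cell cannot be told apart.

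Fibronectin, the adhesive glycoprotein of the provisional matrix, is encoded by Fn1 (ENSMUSG00000026193, chromosome 1, 71585520 to 71653200, mm10, with coordinates from GENCODE M21). It had 34.4 CPM with PBS, 1155 with ZOL and 1891 with ZOL+Ang2, from 64, 18133 and 16587 reads. PBS was low and both other libraries were high. The fold was 33.5 in ZOL against PBS (26.25 to 43.6) and 54.9 with ZOL+Ang2 against PBS (43.0 to 71.3). Over the other scalings these folds ran from 13.4 to 51.8 and from 24.8 to 75.3. ZOL+Ang2 was 1.64-fold above ZOL (1.60 to 1.67), short of 2-fold. Relative to the median of all genes, the log2 fold of ZOL against PBS was 3.89 and that of ZOL+Ang2 against ZOL was 0.89.

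Fibulin 1, which binds fibronectin and basement membrane proteins, is encoded by Fbln1 (ENSMUSG00000006369, chromosome 15, 85205949 to 85286535). Its levels were 104 CPM with PBS, 23.5 with ZOL and 206 with ZOL+Ang2. ZOL was the low library, 4.44-fold below PBS (3.71 to 5.30; 2.875 to 11.1 over the other scalings), and ZOL+Ang2 was 8.78-fold above ZOL (7.85 to 9.85). ZOL+Ang2 was 1.98-fold above PBS (1.70 to 2.30), a direction that turns with the RPKM values as deposited (0.891). Within a library the RPKM of Fn1 was 0.123 times that of Fbln1 with PBS (0.0915 to 0.164), 18.4 times with ZOL (16.6 to 20.4) and 3.43 times with ZOL+Ang2 (3.26 to 3.60). The pair thus changed places between PBS and the other libraries, whichever scaling is used.

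Thrombospondins 1 and 2 bind CD36 and CD47 and are known as inhibitors of angiogenesis, and thrombospondin 1 also activates latent TGF-beta. Thbs1 (ENSMUSG00000040152, chromosome 2, 118111876 to 118127133) had 4 reads with PBS, or 2.15 CPM, against 158.5 CPM with ZOL and 149 with ZOL+Ang2. It was 73.6-fold higher with ZOL than with PBS (28.7 to 270.4) and 69.1-fold higher with ZOL+Ang2 than with PBS (26.9 to 253.9). With the deposited RPKM these folds were 29.4 and 31.1. PBS was low and both other libraries were high and close to each other. ZOL+Ang2 was 1.07-fold below ZOL, with an interval of 0.996 to 1.14 and a direction that turns under 3 of the 6 other scalings.

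Thbs2 (ENSMUSG00000023885, chromosome 17, 14665500 to 14694235) had 56.5 CPM with PBS, 98.55 with ZOL and 445 with ZOL+Ang2. ZOL+Ang2 was the high library, 4.52-fold above ZOL (4.26 to 4.80) and 7.88-fold above PBS (6.49 to 9.66). The 1.74-fold difference of ZOL from PBS (1.43 to 2.15) turns direction with median-of-ratios size factors and with the deposited RPKM. Per length, Thbs1 was at 0.0439 times Thbs2 with PBS (0.0118 to 0.116), 1.855 times with ZOL (1.74 to 1.98) and 0.385 times with ZOL+Ang2 (0.3615 to 0.410). Thbs1 was thus the more abundant of the pair with ZOL and the less abundant with PBS and with ZOL+Ang2.

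Tenascin C is an anti-adhesive hexamer of wounds and tumour stroma. Its gene Tnc (ENSMUSG00000028364, chromosome 4, 63959785 to 64047015) had 208 reads with PBS (112 CPM), 0 with ZOL and 5603 with ZOL+Ang2 (639 CPM). The deepest library was the one without a read. Tnc was at least 586-fold lower with ZOL than with PBS and at least 3343-fold higher with ZOL+Ang2 than with ZOL, and ZOL+Ang2 was 5.71-fold above PBS (4.97 to 6.59). Thinning all libraries to the smallest leaves bounds of 92.3-fold and 359-fold. Of 493 genes with at least 112 CPM in both PBS and ZOL+Ang2, 2 had 0 reads with ZOL (0.406%), namely Tnc and Ldlrad4, the latter named after its values were seen. That level is Tnc's own with PBS, so Tnc is counted by construction. At a level of 100 CPM, 3 of 589 genes had 0 reads (0.509%). A count of 0 limits the reads only, and transcripts may be lost before they are read.

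Periostin, a tenascin partner that binds collagen I and integrins, is encoded by Postn (ENSMUSG00000027750, chromosome 3, 54361109 to 54391037). It had 3.77 CPM with PBS, from 7 reads, 12.1 with ZOL and 269 with ZOL+Ang2. ZOL+Ang2 stood alone as the high library, 22.2-fold above ZOL (19.2 to 25.9) and 71.5-fold above PBS (34.6 to 178). ZOL was 3.21-fold above PBS (1.53 to 8.10), falling to 1.28-fold with the deposited RPKM. All 10 members passed the filter on low values, and Postn is the one that would fail it without ZOL+Ang2. Per length, Postn was at 0.0301 times Tnc with PBS (0.0119 to 0.0630), at least 56.6 times with ZOL and 0.376 times with ZOL+Ang2 (0.3585 to 0.395).

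SPARC binds collagen and loosens cell adhesion. Sparc (ENSMUSG00000018593, chromosome 11, 55394500 to 55423183) had 817 CPM with PBS, 1515 with ZOL and 5245 with ZOL+Ang2, from 1519, 23788 and 45998 reads. ZOL+Ang2 was highest, 3.46-fold above ZOL (3.41 to 3.52) and 6.42-fold above PBS (6.10 to 6.76). ZOL was 1.85-fold above PBS (1.76 to 1.95), which turns to 0.741 with the deposited RPKM.

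SPARC-like 1 (hevin), a relative of SPARC that is also made by endothelium and astrocytes, had another order of libraries. Sparcl1 (ENSMUSG00000029309, chromosome 5, 104079111 to 104113733) had 404 CPM with PBS, 508 with ZOL and 283 with ZOL+Ang2, the lowest of the 3. It was 1.80-fold lower with ZOL+Ang2 than with ZOL (1.72 to 1.88) and 1.43-fold lower than with PBS (1.32 to 1.55), both short of 2-fold. The 1.26-fold difference of ZOL from PBS (1.165 to 1.355) turns under 3 of the 6 other scalings. The RPKM ratio of Sparc to Sparcl1 within a library was 1.57 with PBS (1.44 to 1.71), 2.31 with ZOL (2.26 to 2.37) and 14.4 with ZOL+Ang2 (13.8 to 15.0), so that the distance between them was widest with ZOL+Ang2. An antisense gene, Gm26703, overlaps Sparcl1 and had 44, 0 and 31 reads in the 3 libraries.

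CCN1 (CYR61) and CCN2 (connective tissue growth factor) are integrin-binding proteins whose genes are targets of YAP with TEAD and of TGF-beta. Ccn1 (ENSMUSG00000028195, chromosome 3, 145646976 to 145649981) had 394 CPM with PBS, 252 with ZOL and 323 with ZOL+Ang2. Its 3 values lay within 2-fold of each other. ZOL was 1.56-fold below PBS (1.44 to 1.69), though 3.91-fold below with the deposited RPKM, and ZOL+Ang2 was 1.28-fold above ZOL (1.22 to 1.34). ZOL+Ang2 was 1.22-fold below PBS (1.12 to 1.32), and this direction turns when RPKM are rescaled to a common sum.

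Ccn2 (ENSMUSG00000019997, chromosome 10, 24595442 to 24598683) had 0 reads with PBS, 1158 with ZOL (73.8 CPM) and 4900 with ZOL+Ang2 (559 CPM). It was at least 45.7-fold higher with ZOL than with PBS, at least 346-fold higher with ZOL+Ang2 than with PBS, and 7.575-fold higher with ZOL+Ang2 than with ZOL (7.10 to 8.08). With the deposited RPKM the bounds against PBS are 18.3 and 156. A count of 0 with PBS was not rare: of 1919 genes with at least 73.8 CPM in both other libraries, 173 (9.02%) had none. Per length, Ccn1 was at least 346 times Ccn2 with PBS, 4.84 times with ZOL (4.535 to 5.18) and 0.819 times with ZOL+Ang2 (0.781 to 0.858). Ccn2 overlaps Gm15270 on the opposite strand, which had 0, 15 and 0 reads. Tnc, Fn1 and Thbs1 also overlap an opposite-strand gene, with at most 5 reads each, and the sources used here do not say whether counting used strand.

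**Figure D3:**
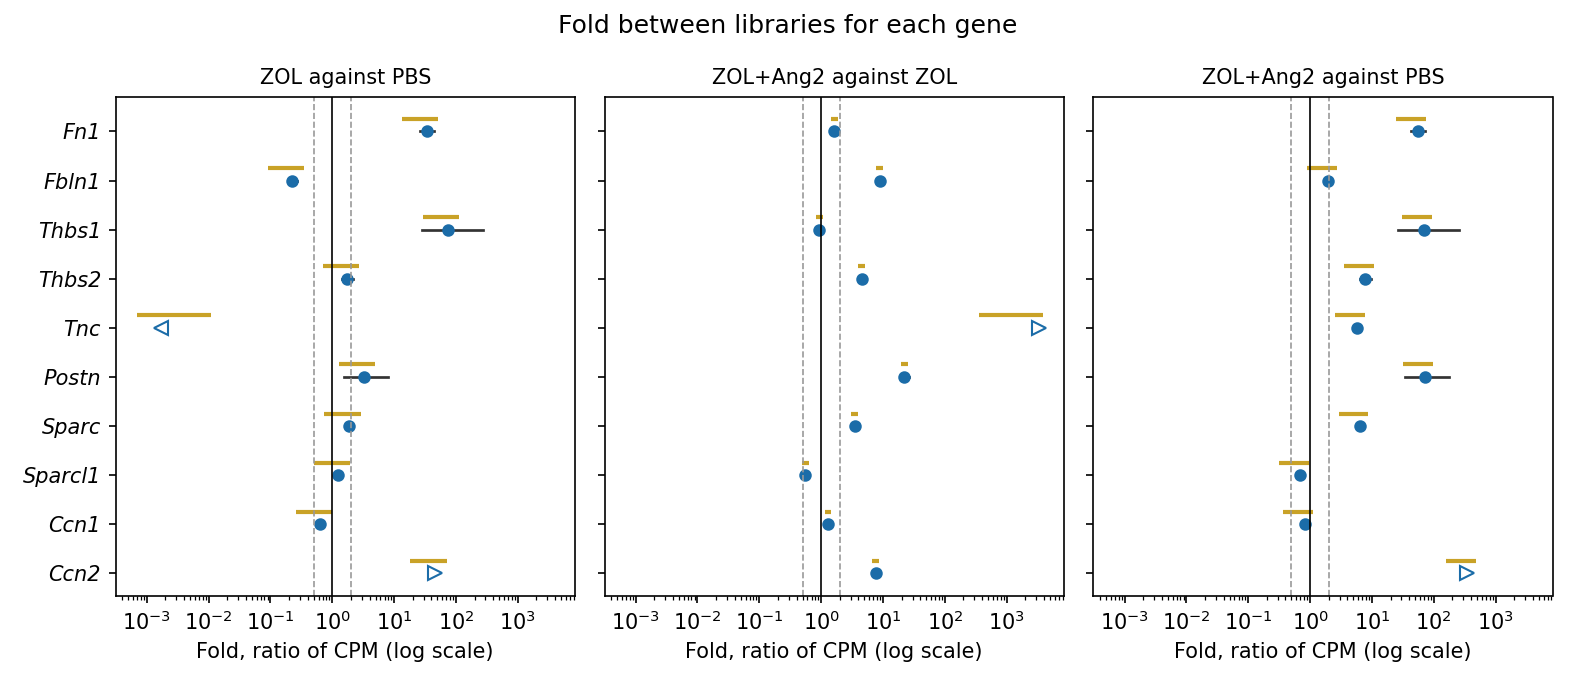
Fold of CPM for each of the 10 genes in ZOL against PBS, ZOL+Ang2 against ZOL and ZOL+Ang2 against PBS (log axis; points are folds, dark lines 95% counting intervals, open triangles bounds, yellow bars the range over 6 other scalings, dashed lines 2-fold). In ZOL+Ang2 against ZOL, 6 genes lie past 2-fold on the higher side and none on the lower.

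Most members were higher with Ang2 added to ZOL than with ZOL alone. In this comparison 6 of 10 were at least 2-fold higher (Tnc, Postn, Fbln1, Ccn2, Thbs2 and Sparc, from 3.46-fold to the bound of Tnc) and 0 were at least 2-fold lower. Postn, among these 6, passed the filter only through ZOL+Ang2, the library in which it was high. Of the 9831 genes with a fold here, 23.0% were at least 2-fold higher, 32.5% were lower and 55.5% were either. The median log2 fold of the members (with a prior of 5 CPM) was 1.95, beside -0.02 over all genes. The remaining members were Fn1 at 1.64-fold and Ccn1 at 1.28-fold, with Thbs1 and Sparcl1 below 1. The count was 6 under each of the 6 other scalings and also when the PBS library was left out of the scaling and the filter. At 4-fold it was 5, without Sparc.

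In ZOL against PBS, 4 of 10 were at least 2-fold higher (Thbs1, Ccn2, Fn1 and Postn) and 2 lower (Tnc and Fbln1). Over 10799 genes, 51.8% were higher and 31.0% lower by this mark. In all, 6 of the 10 members lay past 2-fold, beside 82.8% of these genes. Their median log2 fold was 0.82, beside 0.94 over all genes. The rest, Thbs2, Sparc, Sparcl1 and Ccn1, were within 2-fold. With the deposited RPKM the share of higher genes among those past 2-fold goes from 62.5% to 49.3%, and the members' counts go to 3 higher and 3 lower. With RPKM rescaled to a common sum, 6 were higher and 2 lower.

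In ZOL+Ang2 against PBS, 7 of 10 were at least 2-fold higher (Ccn2, Postn, Thbs1, Fn1, Thbs2, Sparc and Tnc) and 0 lower, beside 48.0% and 36.2% of 10543 genes (84.2% in all). Here too, Postn passed the filter only through ZOL+Ang2. The median log2 fold of the members was 2.77, beside 0.48 over all genes. With the deposited RPKM the share of higher genes among those past 2-fold goes from 57.0% to 46.7%, while 7 members stay higher and 2, Sparcl1 and Ccn1, become lower. On that scale Postn was 32.2-fold, Thbs2 3.55-fold, Sparc 2.89-fold and Tnc 2.57-fold above PBS. The 3 comparisons share libraries, so they are not independent of each other. Summed over the 10 genes, the level was 1929 CPM with PBS, 3797 with ZOL and 10009 with ZOL+Ang2. Sparc alone held 5245 CPM of that last sum. Summed as deposited RPKM, the level was 993, 576 and 1680 in the same order, lowest with ZOL.

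Further genes of the matricellular families (30 genes, 19 of them compared) were more often higher than lower with Ang2 added. Against ZOL alone, 10 of 19 were at least 2-fold higher and 3 lower (9 to 11 higher over the other scalings), beside 23.0% and 32.5% of all genes, and the median log2 fold was 0.92. Of those higher, Ccn5, Ccn4, Tnn, Tnxb and Efemp1 would fail the filter of 10 CPM without the ZOL+Ang2 library. Vtn and Smoc2, among the lower, would fail it without ZOL. The filter thus shaped part of these counts, which are a description only. The CCN proteins Ccn5 and Ccn4 were 75.35-fold (53.4 to 109.9) and 22.5-fold (18.2 to 28.0) higher, and the tenascin Tnxb at least 37.0-fold. Ccn4 went from 18.3 CPM with PBS to 6.115 with ZOL and 137 with ZOL+Ang2, a low point with ZOL like that of Fbln1 and Tnc. The lower genes were vitronectin (Vtn), with 143 CPM with ZOL and 0 reads with ZOL+Ang2 (at least 418-fold), Smoc2 (at least 49.0-fold) and Spock2 (10.3-fold, 8.14 to 13.3). Osteopontin (Spp1), the most abundant, had 932 CPM with PBS, 3040 with ZOL and 7454 with ZOL+Ang2. In ZOL against PBS, 10 of 19 were higher and 6 lower, close to the 51.8% and 31.0% of all genes, and 7 were higher and 7 lower of 18 with the deposited RPKM. The higher were led by Vtn (at least 88.5-fold), Fbln5 (at least 65.9-fold) and Nid1 (35.7-fold), and the lower by Tnxb (at least 121-fold), Hmcn1 (12.4-fold) and Tnn (9.715-fold).

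Receptors that bind the members, chiefly integrins, syndecans, CD36 and CD47, differed in both directions. With Ang2 added to ZOL, 5 of 17 were at least 2-fold higher and 4 lower (3 to 5 and 3 to 4 over the other scalings), near the 23.0% and 32.5% of all genes. The syndecan Sdc1 was 3.81-fold higher (3.605 to 4.04), and Itga5, the fibronectin receptor's alpha chain, 2.86-fold higher (2.595 to 3.145), while Itga4 rested on a bound of at least 26.85-fold. Itgb6 was at least 75.6-fold lower, Itga9, a chain of a tenascin C receptor, at least 38.0-fold lower and Itga8 at least 5.77-fold lower. Itgb6 and Itga9 would fail the filter of 10 CPM without the ZOL library. In ZOL against PBS, 10 of 18 were higher and 4 lower (7 to 10 and 4 to 8 over the other scalings), beside 51.8% and 31.0% of all genes. The 4 lower, Cd36, Itga8, Itga4 and Itgb8, passed the filter only through PBS, the library in which they were high. Itgb5 and Itgb6, among the higher, would fail it without ZOL. The filter thus shaped part of these counts. Sdc1 (at least 70.55-fold), Itgb2 (at least 43.5-fold) and Itgav (at least 29.6-fold) had 0 reads with PBS. Cd36, the thrombospondin receptor, went from 120 CPM with PBS to 0.127 with ZOL, a 942-fold difference with an interval of 257.7 to 7826, and had 0 reads with ZOL+Ang2.

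Among regulators upstream of the members (TGF-beta ligands, receptors and SMADs, YAP, TAZ, TEADs, SRF and its cofactors), 11 of 17 were compared. In ZOL against PBS, 8 were at least 2-fold higher and 1 lower, or 6 and 3 with the deposited RPKM, beside 51.8% and 31.0% of all genes. Among those 8, Tgfb3 and Smad3 had 0 reads with PBS, Yap1 had 1, and Tgfbr2, Smad4 and Tead2 had 2 each. Tgfb3 and Yap1 would fail the filter without the ZOL library. With Ang2 added to ZOL, 1 was higher (up to 4 under other scalings) and 2 lower, beside 23.0% and 32.5%. The receptor Tgfbr2 was at 1.08 CPM with PBS, 129 with ZOL and 240 with ZOL+Ang2. Smad4, the shared partner of receptor SMADs, was the gene higher with Ang2, 3.31-fold (2.91 to 3.77). The ligand gene Tgfb3 had 51.0 CPM with ZOL and 0 reads in both other libraries, and the SRF cofactor gene Mrtfb was 3.28-fold lower with Ang2 (2.93 to 3.67).

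Other known targets of YAP with TEAD and of TGF-beta (15 genes, 9 compared) were mostly higher with ZOL than with PBS, as were 51.8% of all genes. In ZOL against PBS, 8 of 9 were at least 2-fold higher and 0 lower, or 6 and 1 with median-of-ratios size factors and with the deposited RPKM. Among them were Ltbp2 (171-fold, 47.2 to 1411), Cald1 (47.4-fold, 28.7 to 84.7) and Amotl2 (24.4-fold, 6.72 to 202.5). Ltbp2 and Amotl2 rest on 2 PBS reads each, and Lats2 and Smad7, also counted as higher, on 0. Amotl2, Lats2 and Smad7 would fail the filter without the ZOL library. With Ang2 added to ZOL, 1 was higher (Arhgef17, 2.59-fold, 2.345 to 2.86) and 1 lower (Smad7, at least 96.5-fold), beside 23.0% and 32.5% of all genes. Ankrd1, a YAP target like Ccn1 and Ccn2, was 1.55-fold higher (1.47 to 1.63), and Axl was 1.55-fold lower (1.48 to 1.62). The median log2 fold of the list in that comparison was 0.38, beside 1.95 for the members.

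Of the cell type markers, the fibroblast list was lowest with PBS and highest with ZOL+Ang2 in CPM, as the members' sum was. The endothelial list was not. In deposited RPKM the members' sum had another order, at 993, 576 and 1680 with PBS, ZOL and ZOL+Ang2. The summed level of 12 fibroblast markers was 359.5 CPM with PBS, 1260 with ZOL and 11275 with ZOL+Ang2, with Dpt at 0 in all 3. Different genes carried that sum in each library. Apod, which encodes a lipocalin, had 1.08, 776.9 and 307 CPM and was the largest with ZOL. The collagen genes Col1a1 (189, 53.5 and 4280 CPM), Col1a2 (58.1, 93.9 and 3333) and Col3a1 (89.9, 88.9 and 2535) were the largest with ZOL+Ang2. With Ang2 added to ZOL, 8 of the 10 compared were at least 2-fold higher and 1 lower, beside 23.0% and 32.5% of all genes. Of those higher, Lum, Pdgfra, Mfap5 and Ogn passed the filter of 10 CPM only through ZOL+Ang2, the library in which they were high. The proteoglycan gene Dcn was 2.43-fold higher (2.32 to 2.56). Apod was 2.53-fold lower (2.42 to 2.64), and Foxc1 had 27.3 CPM with ZOL and 24.1 with ZOL+Ang2. The 15 endothelial markers summed to 2280, 4103 and 2007 CPM. Of these, 11 of 15 were at least 2-fold lower and 0 higher with ZOL+Ang2 than with ZOL, beside 32.5% and 23.0% of all genes. Erg and Robo4, among the lower, passed the filter only through ZOL. The part of these cell types in the members' differences was not tested.

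Markers of the other cell types also differed between the libraries. Mural markers (8 genes) summed to 2.69, 838 and 360 CPM with PBS, ZOL and ZOL+Ang2. Of these, Acta2 had 670 CPM with ZOL and 108 with ZOL+Ang2, while Pdgfrb went from 21.9 to 126. At least 2-fold higher with Ang2 were 2 of the 5 compared, and 2 were lower, beside 23.0% and 32.5% of all genes. Pdgfrb and Cspg4, the higher genes, passed the filter of 10 CPM only through ZOL+Ang2, and Myh11, among the lower, only through ZOL. Carcinoma and simple epithelial markers (10 genes, led by Krt8 and Krt18) summed to 524, 5543 and 5525. Macrophage and neutrophil markers (12 genes, led by Lyz2) summed to 1304, 137 and 2292, with Cd68 and Itgam at 0 in all 3, and were lowest with ZOL, as Tnc and Fbln1 were. Erythroid markers (5 genes, led by Hba-a1) had the same low point, at 190.5, 5.54 and 25144 CPM. Lymphatic markers (7 genes) summed to 275, 170 and 218, bone markers (7 genes) to 45.2, 329 and 199, and platelet markers (5 genes, led by Pf4) to 31.75, 2.42 and 21.2. The lymphatic sums hide genes that ran in opposite directions. Mmrn1 (155, 11.5 and 12.0 CPM) and Reln (99.6, 8.60 and 7.87) were highest with PBS. Pdpn (18.8, 67.5 and 170.6) and Flt4 (0.538, 70.9 and 23.8) were lowest there. The largest bone marker was Phex with PBS (45.2 CPM), Dmp1 with ZOL (276) and Alpl with ZOL+Ang2 (116). None of these lists was tested as a source of the members' RNA.

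**Figure D4:**
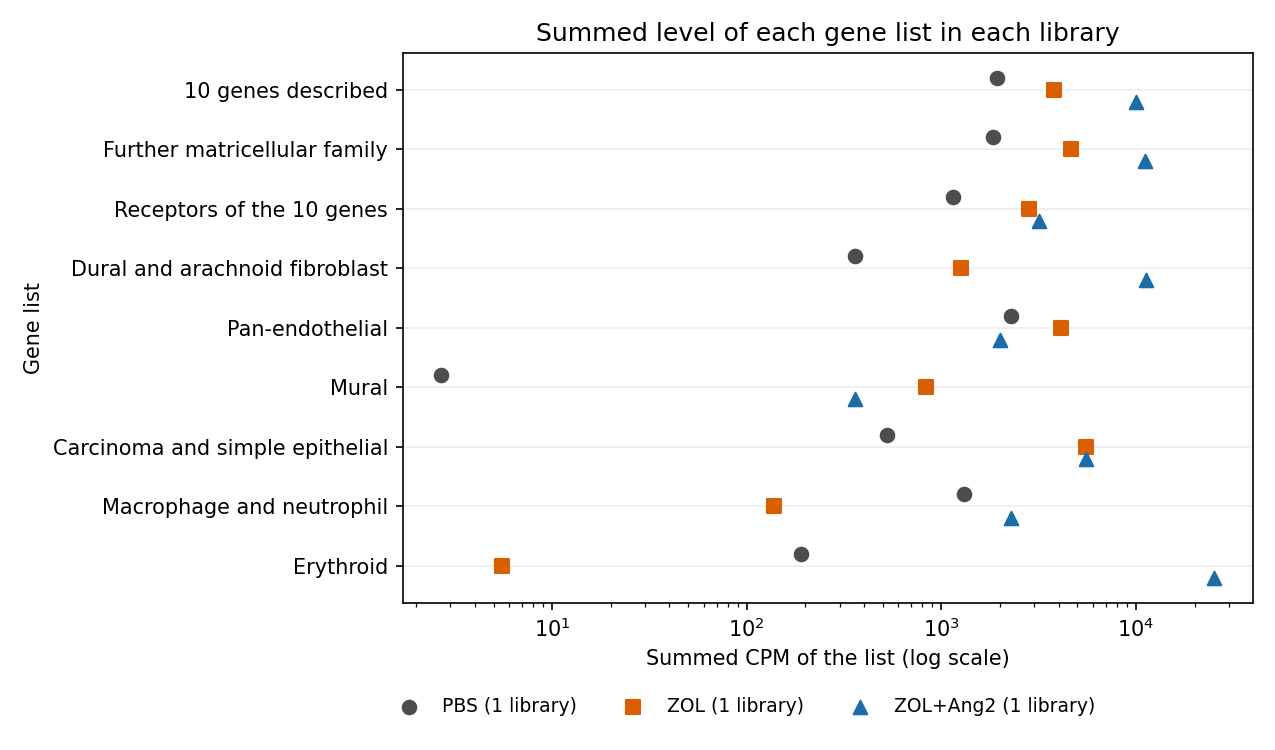
Summed CPM of the 10 members, 2 related lists and 6 marker lists with PBS, ZOL and ZOL+Ang2 (log axis, 1 point per library). The fibroblast sum goes from 359.5 to 1260 to 11275 CPM and the members' sum from 1929 to 3797 to 10009. In deposited RPKM, not shown, the members' sum is lowest with ZOL.

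For the 4 members with the highest mean RPKM, the genes with the most similar pair of log2 folds (ZOL against PBS and ZOL+Ang2 against ZOL) were sought among 3423 genes over the 3 libraries. Nearest to Sparc were Acp2, Htt and Snx4, at distances of 0.14, 0.14 and 0.21 log2 units. Nearest to Ccn1 were Uck2, Pan3 and Hs3st1 (0.05, 0.07 and 0.07), and nearest to Fn1 were Ebna1bp2, Cald1 and Pgk1 (0.17, 0.23 and 0.23). Sparcl1 was nearest to H2-Ab1 (0.01), with Rbm5 (0.02) and H2-DMb2 (0.04) next. H2-Ab1 and H2-DMb2 encode class II antigen presentation proteins, with H2-Ab1 at 846, 1066 and 599.9 CPM with PBS, ZOL and ZOL+Ang2. With 3 libraries, many genes lie close to any pattern, and these names describe a distance only.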

How the data were processed

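The authors deposited RPKM values per gene for 3 libraries of total RNA amplified at full length. The tools fastp, HISAT2 2.2.1 and featureCounts 2.0.6 and the mm10 build are named, per the submitters' processing notes, and the sources used here give no annotation, strand setting or RPKM total. The analysis needed reads, which were recovered from RPKM with GENCODE M21 exon lengths. Within 0.01 of a whole number lay 96.9% (PBS), 96.4% (ZOL) and 96.2% (ZOL+Ang2) of values, and 37 genes without a length were left out. Recovered reads were 1.50, 0.701 and 0.785 times the totals implied by RPKM, so they may not be the authors' counts. CPM used TMM factors of 1.11, 0.946 and 0.953 (trims of 30% and 5%), and genes averaging 10 CPM or more were compared. Intervals are exact binomial at 95%. Floors of 3 reads equal 1.61, 0.191 and 0.342 CPM. Amplified reads without molecular identifiers are not independent molecules, so intervals cover counting error only. Steps were tested on simulated data, in Python 3.11.15 with numpy 2.4.6 and scipy 1.17.1. Members and lists were chosen with earlier results of these data known. Named were all members, up to 3 highest and 3 lowest genes of each related list, the most abundant markers and the nearest genes. Others were chosen after their values were seen.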

Additional observations from a re-analysis of the deposited data

How the results depend on the processing

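Alternatives covered the scaling, the library total, thinning, the fold, the filter and the prior. The prior of 5 CPM in the fold and the scaling without the PBS library were added after seeing the data. Under the 6 other scalings, no member turned direction in a comparison where it was at least 2-fold apart. The count of members at least 2-fold lower in ZOL+Ang2 against ZOL went from 0 to 1 with RPKM rescaled to a common sum. In ZOL+Ang2 against PBS it went from 0 to 1 with median-of-ratios size factors, to 2 with RPKM as deposited and to 1 with thinned libraries. The filter moved the number of all genes at least 2-fold apart. In ZOL against PBS it was 8943, and 15892, 2643 and 16543 with a mean of at least 1 CPM, at least 50 CPM and no filter. In ZOL+Ang2 against ZOL it was 5454, and 10402, 1280 and 12884, and 3372 at 4-fold. In ZOL+Ang2 against PBS it was 8876, and 14938, 2688 and 15504. Depth limits PBS most, where 3 reads are 1.61 CPM and Thbs1 and Postn rest on 4 and 7 reads. No paired analysis was possible because each group is 1 library.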
